A study of Mus musculus with 9 samples.

Results

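Cd38 and 9 other genes that make, convert or consume nicotinamide adenine dinucleotide (NAD) were followed in mouse macrophages cultured on 3 implant materials. The 10 genes were picked by symbol from a table of 54532 genes, with their levels in these same libraries already known. They are Cd38 and Bst1, which cleave NAD, Nampt, Naprt, Nmnat1 and Nmnat3, which make it, Nadk, which converts it to NADP, and Sirt1, Parp1 and Parp14, which use it as a substrate. Their levels and differences are therefore a description, and no test is offered for them. All 10 passed the filter on low values, at least 1 FPKM in at least 3 libraries, which 10858 genes passed.

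The cells were wild-type primary macrophages grown from bone marrow and held for 48 h on titanium labelled cpTi, on the zirconium-copper-aluminium metallic glass Zr61Cu25Al14 (Ta0), or on the tantalum-bearing glass Zr58Cu25Al14Ta3 (Ta3). Each material had 3 libraries of polyA RNA, 9 in all, and nothing in the labels says whether they came from separate animals or cultures. All libraries came from cells on 1 of these materials, so a lower level on a glass and a higher level on titanium are the same observation. The tissue is labelled as a xenograft, a term not used here. Values are FPKM, fragments per kilobase of gene, on the scale of each library that the authors set. The column stems of the table name titanium, zirconium and tantalum, and the zirconium stem was read as Ta0. A reversed reading would exchange Ta0 and Ta3.

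NAD carries electrons in metabolism and is also broken down by enzymes that use it as a substrate. Most cells refill it by salvage, in which NAMPT joins nicotinamide to a ribose phosphate and an NMNAT enzyme completes the dinucleotide. NAPRT starts a parallel route from nicotinic acid, and a longer route starts from tryptophan. CD38 and its relative BST1 are surface enzymes that split NAD and release nicotinamide, and CD38 is a widely used marker of inflammatory macrophages in mice. Sirtuins remove acyl groups from proteins at the cost of NAD, and PARP enzymes transfer its ADP-ribose to proteins.

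The libraries held between 15517877 and 18689963 reads when rebuilt from the FPKM. Ta0 replicate 1 and Ta3 replicate 3 stood apart. Of their genes with 1 to 20 reads, 9.77% and 7.89% had a single read, against 22.4% to 27.9% in the others, and ribosomal protein genes took 18.3% and 16.9% of their reads, against 2.22% to 10.3%. Their slopes of expression on log2 gene length were -0.23 and -0.21, so long genes read low in them, while Ta3 replicate 2 and cpTi replicate 3 had slopes of 0.27 and 0.21. The part of these features in the results below was not tested, apart from the fits named there.

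All 8 macrophage markers examined passed the filter, with a summed level of 16790 to 29370 FPKM on cpTi, 23320 to 40280 on Ta0 and 10930 to 40070 on Ta3. Lyz2, the lysozyme gene, makes up most of that sum. Adgre1, a surface receptor widely used to mark mouse macrophages, had a mean of 157 FPKM on cpTi, 89.1 on Ta0 and 87.9 on Ta3, and did not pass the test on either glass (limma adjusted p = 0.294 and 0.245). Cd68, another marker of the list, had higher means on the glasses, 896 FPKM on cpTi, 1073 on Ta0 and 1349 on Ta3 (limma adjusted p = 0.796 and 0.861). Of the 8 markers, 0 passed in either comparison with cpTi, with 5 below 0 on Ta0 and 7 on Ta3.

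Cd38 was lower on both glasses, about 3-fold. It stood at 29.0, 30.3 and 34.7 FPKM in cpTi replicates 1, 2 and 3. On Ta0 it stood at 6.37, 9.85 and 12.5 FPKM, and on Ta3 at 7.80, 9.84 and 9.15 FPKM. No glass library came near the titanium libraries, and the lowest titanium value is over the highest glass value by a wide gap. The means were 31.3 ± 3.01 FPKM on cpTi, 9.57 ± 3.07 on Ta0 and 8.93 ± 1.04 on Ta3 (SD, n = 3), so Cd38 was 3.27-fold lower on Ta0 and 3.51-fold lower on Ta3. Behind these values lie 1942 to 2960 rebuilt reads per titanium library and 225 to 826 per glass library, so counting error is small beside the spread between libraries.

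On the log2(FPKM + 1) scale, which understates the change of low genes, the difference of Cd38 from cpTi was -1.65 ± 0.23 (SE) on Ta0 and -1.70 ± 0.23 on Ta3. Among the 10858 genes these were the 23rd and 31st lowest values. In the limma fit over all genes, where 0.424% of genes were called on Ta0 and 0.479% on Ta3 at an adjusted p under 0.05, Cd38 was the single called gene of the 10 on each glass. The genes were chosen with these values known, so nothing is read from that count. The size of the difference kept its sign in all 18 alternative fits per glass, from -2.21 to -1.41 on Ta0 and from -1.86 to -1.62 on Ta3. The call was less steady. On Ta0 it ended when any single library of cpTi or of Ta0, or Ta3 replicate 1, was left out (-1.85 to -1.41). On Ta3 it ended when any single library of cpTi or of Ta3, or Ta0 replicate 2, was left out (-1.77 to -1.62).

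**Figure D1:**
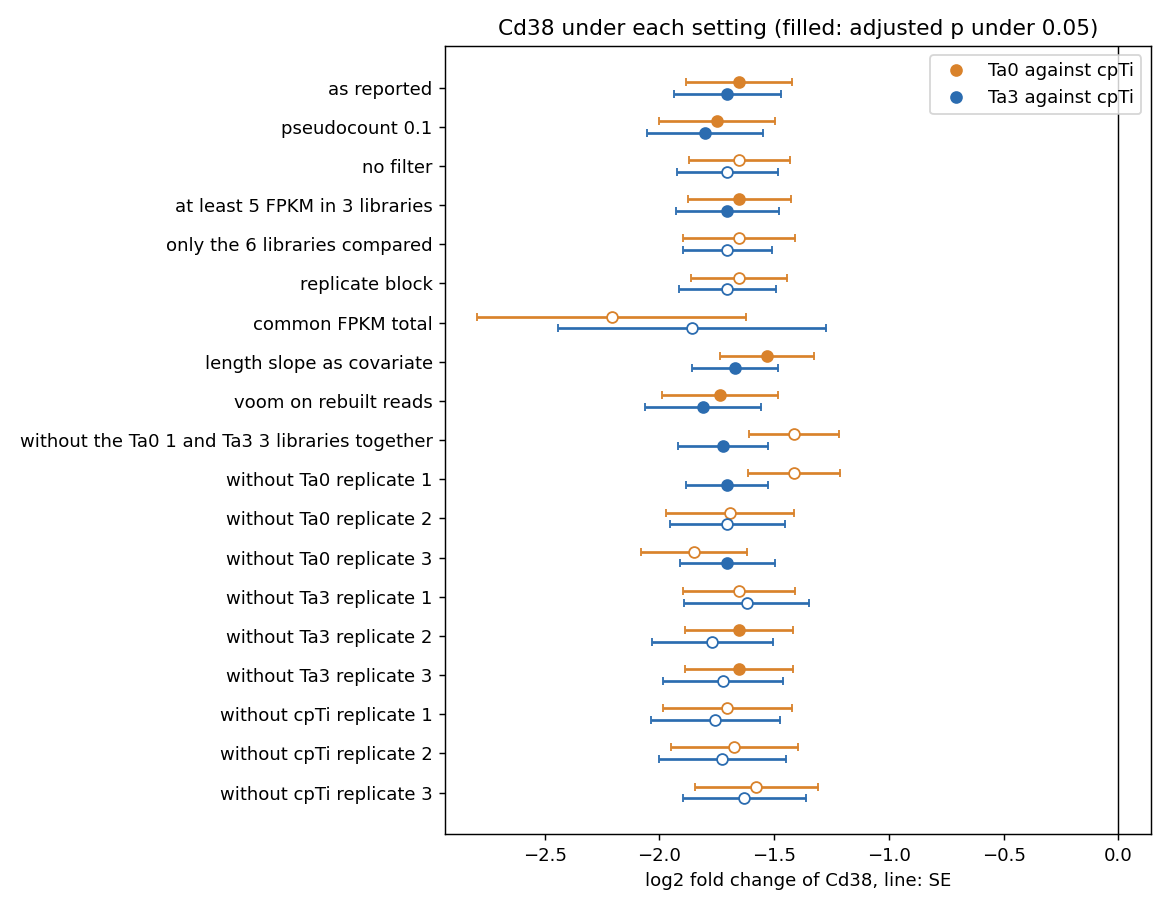
Log2 fold change of Cd38 against cpTi (x axis, with its SE) under the reported fit and 18 alternatives (y axis), for Ta0 in orange and Ta3 in blue, with filled points where the adjusted p over all genes was under 0.05. Every estimate lies between -2.21 and -1.41, while filled and open points alternate between settings.

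Between the glasses Cd38 differed by -0.05 ± 0.23 (Ta3 against Ta0, 95% interval -0.58 to 0.48). The interval holds differences of either sign, so it does not show equal levels. The 3 Ta3 values lie inside the range of the Ta0 values.

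Bst1 lies beside Cd38 in the genome and had the highest level of the 10 genes. On GRCm38, Bst1 (ENSMUSG00000029082) spans chr5:43818885-43843986 and Cd38 (ENSMUSG00000029084) spans chr5:43868553-43912375, both on the plus strand. The gap between them is 24566 bases and no other gene of the table starts in it. Bst1 stood at 92.7, 119 and 71.2 FPKM on cpTi, at 61.5, 55.8 and 67.8 on Ta0 and at 49.6, 44.9 and 70.9 on Ta3. Every glass library lay under every titanium library, but cpTi replicate 3 and Ta3 replicate 3 nearly met. The mean was 94.4 ± 24.1 FPKM on cpTi, 61.7 ± 5.99 on Ta0 and 55.1 ± 13.9 on Ta3 (SD, n = 3), with log2 differences from cpTi of -0.58 ± 0.27 and -0.76 ± 0.27, and Bst1 was not called on either glass.

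Of this neighbouring pair, Cd38 was the one with the larger difference. The ratio of Cd38 to Bst1 FPKM was 0.313, 0.254 and 0.488 in the cpTi libraries, 0.104, 0.177 and 0.184 on Ta0 and 0.157, 0.219 and 0.129 on Ta3. The ratio was lower in each glass library than in each titanium library. Bst1 is also expressed by neutrophils and stromal cells, and Cd38 by B cells and plasma cells. B and plasma cell markers summed to 63.6 to 99.2 FPKM on cpTi, 66.6 to 82.0 on Ta0 and 63.6 to 89.7 on Ta3, of which Sdc1, also found outside plasma cells, gave at least 51.2, and the B cell gene Pax5 stayed at or below 0.0567 FPKM in every library. Of the 3 tested genes of that list 1, Sdc1, was below 0 on each glass, and none was called. Cd79b, a B cell receptor component, had means of 1.56, 4.55 and 4.63 FPKM on cpTi, Ta0 and Ta3. Its log2 differences from cpTi were 1.11 and 0.81, with an SE of 0.56. Cd79b ranged from 1.01 to 2.46 FPKM on cpTi, 3.395 to 6.62 on Ta0 and 1.07 to 10.2 on Ta3, so Ta3 overlapped cpTi. Its partner Cd79a had means of 1.28, 2.28 and 1.54 FPKM (0.48 and 0.16), and its range on each glass overlapped that on cpTi. These mean differences lay on the side opposite to Cd38. The part of B cells in the Cd38 difference was not tested. The neutrophil gene Ly6g was listed at 0 in all 9 libraries. The neutrophil list summed to 62.0 to 270 FPKM on cpTi, 92.1 to 388 on Ta0 and 10.4 to 384 on Ta3, most of it S100a8. S100a8 had log2 differences from cpTi of 0.46 on Ta0 and -0.70 on Ta3, with an SE of 1.21. S100a9 had means of 4.13, 13.6 and 6.47 FPKM (log2 differences of 1.64 and 0.30), and neither gene was called. The fibroblast and stromal list summed to 28.0 to 50.5 FPKM on cpTi, 30 to 31.1 on Ta0 and 36.4 to 44.0 on Ta3. In RNA from many cells, fewer cells that express a gene and less RNA of it per cell cannot be told apart.

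**Figure D2:**
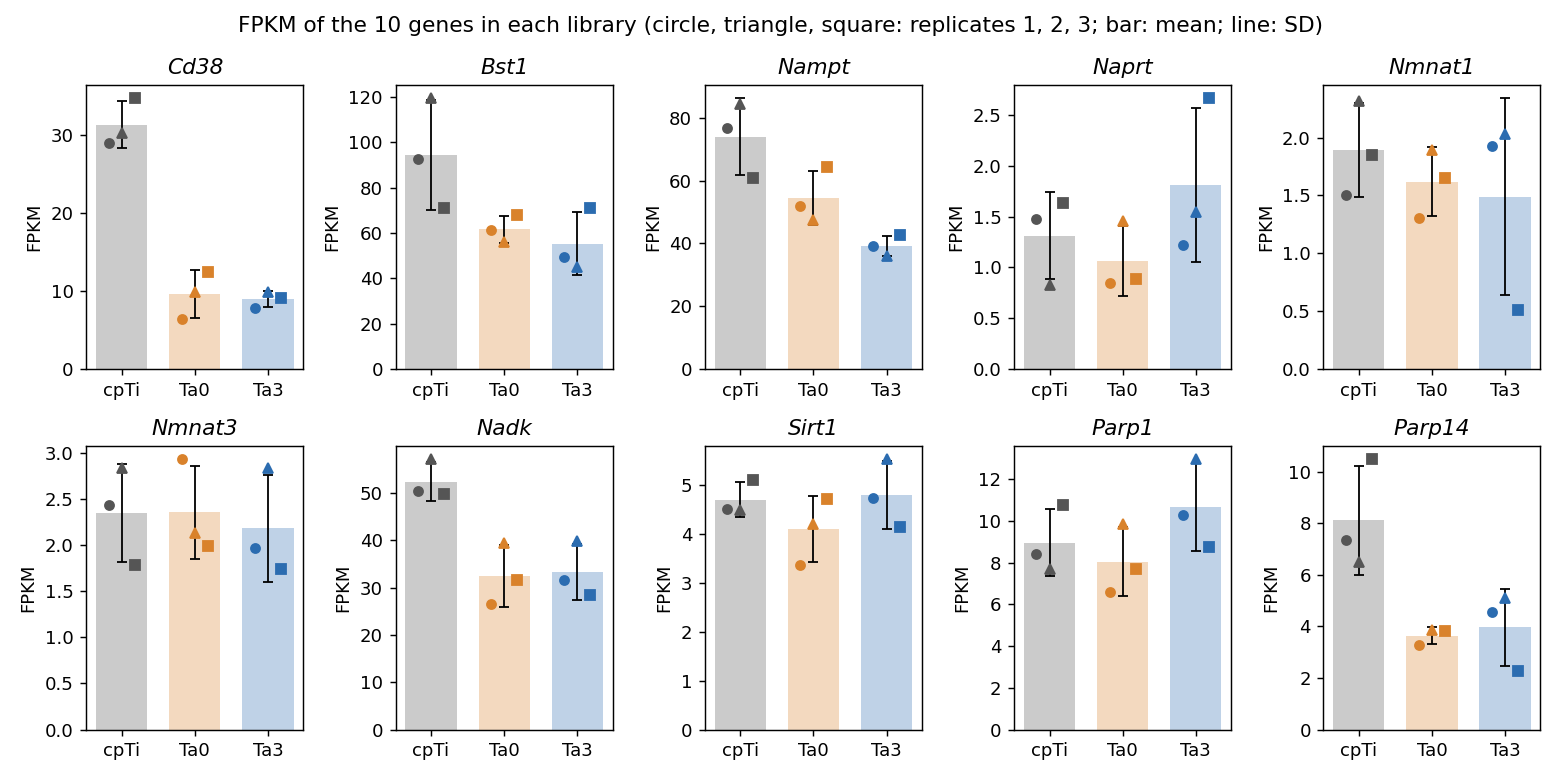
FPKM (y axes, from 0) of the 10 genes on cpTi, Ta0 and Ta3, with circles, triangles and squares for replicates 1, 2 and 3, bars for the mean and lines for the SD (n = 3). Cd38, Bst1, Nadk and Parp14 lie lower in every glass library than in every cpTi library, and Nampt does so on Ta3.

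Nampt, the salvage enzyme that sets the pace of NAD synthesis in most cells, was the most abundant synthesis gene. It stood at 76.9, 84.5 and 60.8 FPKM on cpTi, at 52.1, 47.4 and 64.2 on Ta0 and at 39.1, 36.1 and 42.6 on Ta3. The Ta3 libraries lay under all others, whereas Ta0 replicate 3 lay over cpTi replicate 3. The means were 74.1 ± 12.1, 54.6 ± 8.67 and 39.3 ± 3.22 FPKM (SD, n = 3). Nampt was 1.89-fold lower on Ta3 than on cpTi (log2 difference -0.89 ± 0.21) and 1.36-fold lower on Ta0 (-0.43 ± 0.21). It was also the only one of the 10 genes whose Ta3 libraries all lay under the Ta0 libraries (-0.46 ± 0.21), a split that 4.87% of all tested genes showed. None of these differences was called in the reported fit. Between the glasses the Nampt difference ran from -0.550 to -0.003 over the 18 alternative fits. With 1 library left out it ran from -0.550 to -0.336.

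Nadk, the cytosolic kinase that turns NAD into NADP, stood at 50.4, 57.1 and 49.7 FPKM on cpTi, at 26.5, 39.4 and 31.5 on Ta0 and at 31.7, 39.9 and 28.4 on Ta3. No glass library reached the titanium range. The log2 differences from cpTi were -0.69 ± 0.22 on Ta0 and -0.65 ± 0.22 on Ta3, close to a 1.6-fold lower level on each, and neither was called. Within each glass the lowest Nadk value came from the library with few single-read genes, Ta0 replicate 1 or Ta3 replicate 3.

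The remaining synthesis genes were scarce and showed no common direction. Naprt, the entry enzyme for nicotinic acid, ranged from 0.828 to 1.64 FPKM on cpTi, from 0.846 to 1.46 on Ta0 and from 1.22 to 2.66 on Ta3, on 18 to 84 reads per library. Nmnat1, the nuclear NMN adenylyltransferase, ranged from 1.51 to 2.32, from 1.31 to 1.90 and from 0.505 to 2.03 FPKM. Its low value is Ta3 replicate 3, which held 15 reads of it and also the highest Naprt value. Nmnat3, described as the mitochondrial form, ranged from 1.78 to 2.84, from 1.99 to 2.93 and from 1.74 to 2.83 FPKM. For these 3 genes the material ranges overlapped in every comparison, with log2 differences from cpTi between -0.28 and 0.27 and SE of 0.20 to 0.27.

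RefSeq promoter windows (GRCm38.p6) were matched for 7 of the 10 genes, and the 250 bases before the RefSeq start are shown for a pair of genes that lay lower on the glasses, Nampt and Nadk, and for 1 that did not, Parp1, so that their base composition can be compared. The Cd38 window lies inside an annotated 5′ untranslated region and is not shown. All 3 are on the plus strand and written 5′ to 3′. The Nampt window is chr12:32820085-32820334, the Nadk window shown chr4:155562131-155562380 and the Parp1 window chr1:180568641-180568890. Nadk has another RefSeq window, chr4:155563565-155563814, which is not shown. The RefSeq start can differ from the gene start in the deposited table. Nampt starts at 32819545 in that table, so its window lies inside the gene as listed there. The Nadk window shown runs 3 bases into the listed gene, which starts at 155562378.
Nampt: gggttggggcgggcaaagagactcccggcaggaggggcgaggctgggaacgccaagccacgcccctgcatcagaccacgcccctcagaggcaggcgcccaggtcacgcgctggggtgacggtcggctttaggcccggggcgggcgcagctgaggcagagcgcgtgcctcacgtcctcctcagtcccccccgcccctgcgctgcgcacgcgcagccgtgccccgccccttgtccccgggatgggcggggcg
Nadk: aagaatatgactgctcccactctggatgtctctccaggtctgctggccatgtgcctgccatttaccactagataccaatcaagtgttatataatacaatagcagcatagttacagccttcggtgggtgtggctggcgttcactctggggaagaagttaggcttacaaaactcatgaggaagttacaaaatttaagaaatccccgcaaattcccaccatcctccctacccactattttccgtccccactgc
Parp1: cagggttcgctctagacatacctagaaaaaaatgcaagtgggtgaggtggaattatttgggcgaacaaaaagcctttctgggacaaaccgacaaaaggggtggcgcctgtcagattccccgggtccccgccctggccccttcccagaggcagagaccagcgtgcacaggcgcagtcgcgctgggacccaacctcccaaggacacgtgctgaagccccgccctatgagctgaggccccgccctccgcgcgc
The windows shown hold 75.6%, 46.8% and 61.6% G and C, where the median of all 32851 windows is 52.4%. The other Nadk window holds 66%, so the place of Nadk against the median depends on the window taken. Searched on both strands, the interferon-stimulated response element core (GAAA, any 2 bases, GAAA), the kappa B site and the AP-1 site TGANTCA had no match in any window of the 7 genes, Cd38 included, which is why no letter is in capitals. Of all windows of this length, 2.98%, 7.25% and 6.75% hold a match. The absence of these letters says nothing about the factors.

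Among the NAD consumers Parp14 lay lower in every glass library, while the values of Sirt1 and Parp1 overlapped between materials. Parp14, a large mono-ADP-ribosyltransferase induced by interferon, stood at 7.35, 6.50 and 10.5 FPKM on cpTi, at 3.28, 3.85 and 3.81 on Ta0 and at 4.56, 5.09 and 2.26 on Ta3. All glass libraries lay under all titanium libraries, by 2.23-fold and 2.04-fold in the means (log2 difference -0.95 ± 0.26 and -0.90 ± 0.26, not called). By the gene length that FPKM divides by, not by its span in the genome, Parp14 is the longest of the 10 genes, at 9306 bases. Its highest value was in cpTi replicate 3 and its lowest in Ta3 replicate 3, libraries with slopes on gene length of 0.21 and -0.21.

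Sirt1, a nuclear deacylase, stood at 4.50, 4.49 and 5.10 FPKM on cpTi, at 3.37, 4.21 and 4.71 on Ta0 and at 4.72, 5.52 and 4.14 on Ta3. Parp1, the main DNA damage sensor of its family, stood at 8.42, 7.69 and 10.8 on cpTi, at 6.58, 9.85 and 7.71 on Ta0 and at 10.3, 13.0 and 8.77 on Ta3. Their log2 differences from cpTi lay between -0.17 and 0.22, with SE of 0.16 and 0.21.

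By level, the order on cpTi was Bst1, Nampt, Nadk, Cd38, Parp1, Parp14, Sirt1, Nmnat3, Nmnat1 and Naprt. Bst1 and Nampt overlapped there, as did Parp1 and Parp14, Nmnat3 and Nmnat1, and Nmnat1 and Naprt, while Nmnat3 lay clear of Naprt. Cd38 lay clear of its neighbours on cpTi, under every Nadk value and over every Parp1 value. On both glasses its range overlapped that of Parp1.

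Over the whole set, 9 of 10 genes were below 0 on Ta0 and 7 of 10 on Ta3, with medians of -0.30 and -0.46. Of all tested genes 50.14% were below 0 on Ta0 and 47.35% on Ta3, with medians of -0.00 and 0.02. Lower levels without overlap were seen for 4 genes on Ta0, a split shown by 10.2% of tested genes, and for 5 on Ta3, shown by 8.22%. The 10 genes were chosen with these values known, so nothing is read from these counts and medians. The comparisons with cpTi share the titanium libraries. Between the glasses 5 genes were above and 5 below 0, and limma called none of the 10858 genes (0%), with 462 at an unadjusted p under 0.05. Voom on rebuilt reads also called 0.

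With the slope on gene length as a covariate, which called 2.27% of all genes on Ta0 and 5.37% on Ta3, Bst1 joined Cd38 on Ta0, and Bst1, Nampt, Nadk and Parp14 joined it on Ta3. The slopes came from the same expression values that were then fitted, so calls with this covariate are a description. Without Ta0 replicate 1 and Ta3 replicate 3, Cd38 was called on Ta3 (-1.72 ± 0.19) but not on Ta0 (-1.41 ± 0.19).

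**Figure D3:**
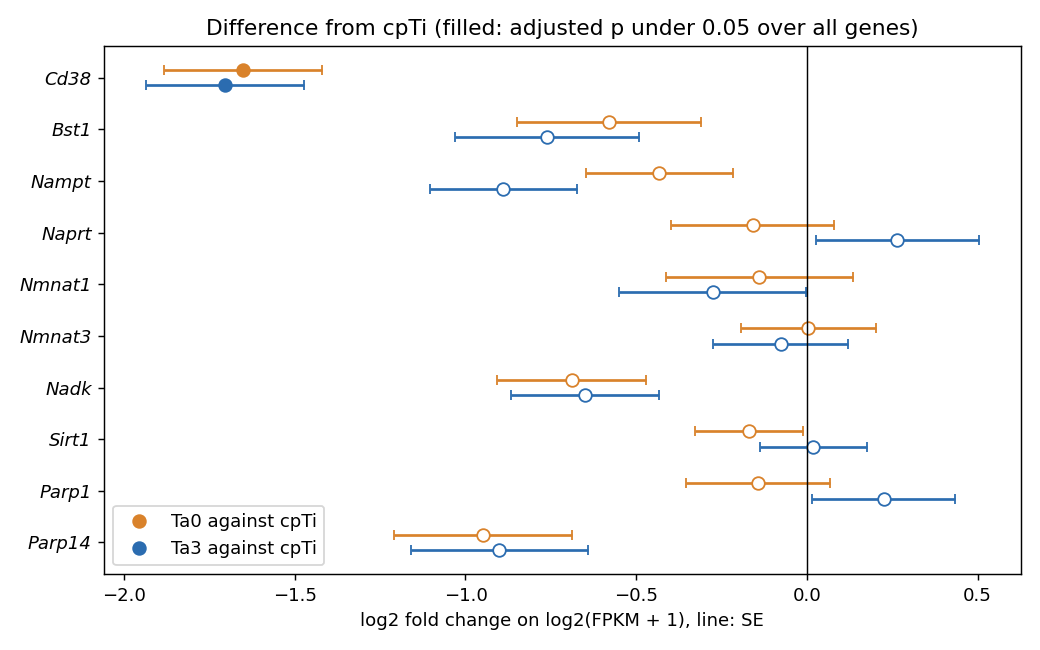
Log2 fold change against cpTi (x axis, with its SE) of the 10 genes (y axis) on Ta0 in orange and Ta3 in blue, with filled points for genes called over all genes tested. Cd38, at -1.65 and -1.70, is the only gene with filled points. Next in size are Parp14, Nadk, Bst1 and Nampt on Ta0, and Parp14, Nampt, Bst1 and Nadk on Ta3.

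Of 59 other genes of NAD metabolism in 6 lists, 38 passed the filter. The limma fit on the 3 group means called none of them in any comparison, with 5 on Ta0, 5 on Ta3 and 2 between the glasses at an unadjusted p under 0.05. With the length slope as a covariate, Parp12 and Pnp, a purine nucleoside phosphorylase, were called on Ta0, and Parp9 and Nadsyn1 on Ta3. That fit called 2.27% of all genes on Ta0 and 5.37% on Ta3, so nothing is read from 2 of 38 on each glass. The other 17 alternatives called none of the 38, of which the filter at 5 FPKM left 21. Pnp, named for that call, had means of 18.6, 13.2 and 14.7 FPKM on cpTi, Ta0 and Ta3. In the reported limma fit the smallest adjusted p was 0.228 on Ta0, 0.0901 on Ta3 and 0.846 between the glasses. On Ta0 22 and on Ta3 21 of the 38 were below 0, with medians of -0.10 and -0.05. None of the 9 genes listed for the route from tryptophan passed the filter. They are Ido1, Ido2, Tdo2, Afmid, Kmo, Kynu, Haao, Qprt and Acmsd. The highest value among them in any library was 0.434 FPKM, for Afmid. The list leaves out the last steps, Nadsyn1, Nmnat1 and Nmnat3, which passed the filter. Genes of salvage and of the nicotinic acid route did pass it.

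The PARP family was the list with most members below 0. Of its 13 genes, all tested, 11 were below 0 on Ta0 and 10 on Ta3, with medians of -0.28 and -0.27, and none was called without the covariate. Parp9, an interferon-induced member, stood at 11.4 ± 0.253 FPKM on cpTi, 6.98 ± 1.57 on Ta0 and 5.81 ± 0.0802 on Ta3 (SD, n = 3), with adjusted p of 0.281 and 0.0901. Parp12, which acts against viruses, stood at 17.3 ± 0.940, 9.92 ± 1.61 and 12.02 ± 2.16 FPKM, with adjusted p of 0.228 and 0.567. For both, the libraries of each glass lay under those of cpTi. Dtx3l, the ubiquitin ligase partner of PARP9, stood at 5.90 ± 1.799, 3.26 ± 0.557 and 3.83 ± 1.16 FPKM (adjusted p = 0.693 and 0.744). Parp14, Parp9 and Dtx3l all lie between 35832874 and 35972605 of chromosome 16. Parp9 and Dtx3l overlap there on opposite strands, and reads of the shared stretch cannot be assigned without the strand setting, which is not given in the sources used here. With the length slope as a covariate in limma, Parp12 was called on Ta0 (adjusted p = 0.0495) and Parp9 on Ta3 (adjusted p = 0.00887). That fit called 2.27% and 5.37% of all genes.

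The other lists held genes on both sides of 0. In the synthesis list Nadsyn1, the last enzyme of the nicotinic acid route, had means of 2.09, 2.54 and 3.69 FPKM on cpTi, Ta0 and Ta3 (adjusted p = 0.750 and 0.268), and Nmrk1, a nicotinamide riboside kinase, 2.73, 4.73 and 2.37 (adjusted p = 0.697 and 0.958). Nadsyn1 was called on Ta3 with the length slope as a covariate in limma (0.60 ± 0.15, adjusted p = 0.0490), where 5.37% of all genes were called. Nadk2, the mitochondrial NAD kinase, had means of 2.86, 1.86 and 2.45 FPKM (adjusted p = 0.750 and 0.958). Its lowest value, 0.947 FPKM, was in Ta0 replicate 1. Unlike Nadk, its range on each glass overlapped that on cpTi, and neither kinase was called in the reported fit. Naxe, an epimerase that repairs damaged NADH, had 72.3 ± 26.6, 162 ± 107 and 125 ± 93.5 FPKM, with its highest values of 283 and 228 in Ta0 replicate 1 and Ta3 replicate 3.

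Among genes that cleave NAD or handle ADP-ribose, Enpp1, a surface nucleotide pyrophosphatase, had 2.80, 3.24 and 3.13 FPKM, and Nudt9, an ADP-ribose hydrolase, 23.2, 28.6 and 23.5. All 3 tested genes of that list were above 0 on Ta0, with a median of 0.16 and a smallest adjusted p of 0.750. On Ta3 1 of the 3, Nudt5, was below 0 (-0.20), with a median of 0.04. Of 5 tested sirtuins Sirt3, a mitochondrial deacetylase, had 1.31, 1.08 and 0.630 FPKM (adjusted p = 0.796 and 0.602) and Sirt7, a nucleolar one, 9.31, 9.51 and 11.3 (adjusted p = 0.953 and 0.892). Adprhl2, which removes ADP-ribose from serine, had 13.3, 16.9 and 16.4 FPKM (adjusted p = 0.750 and 0.927).

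**Figure D4:**
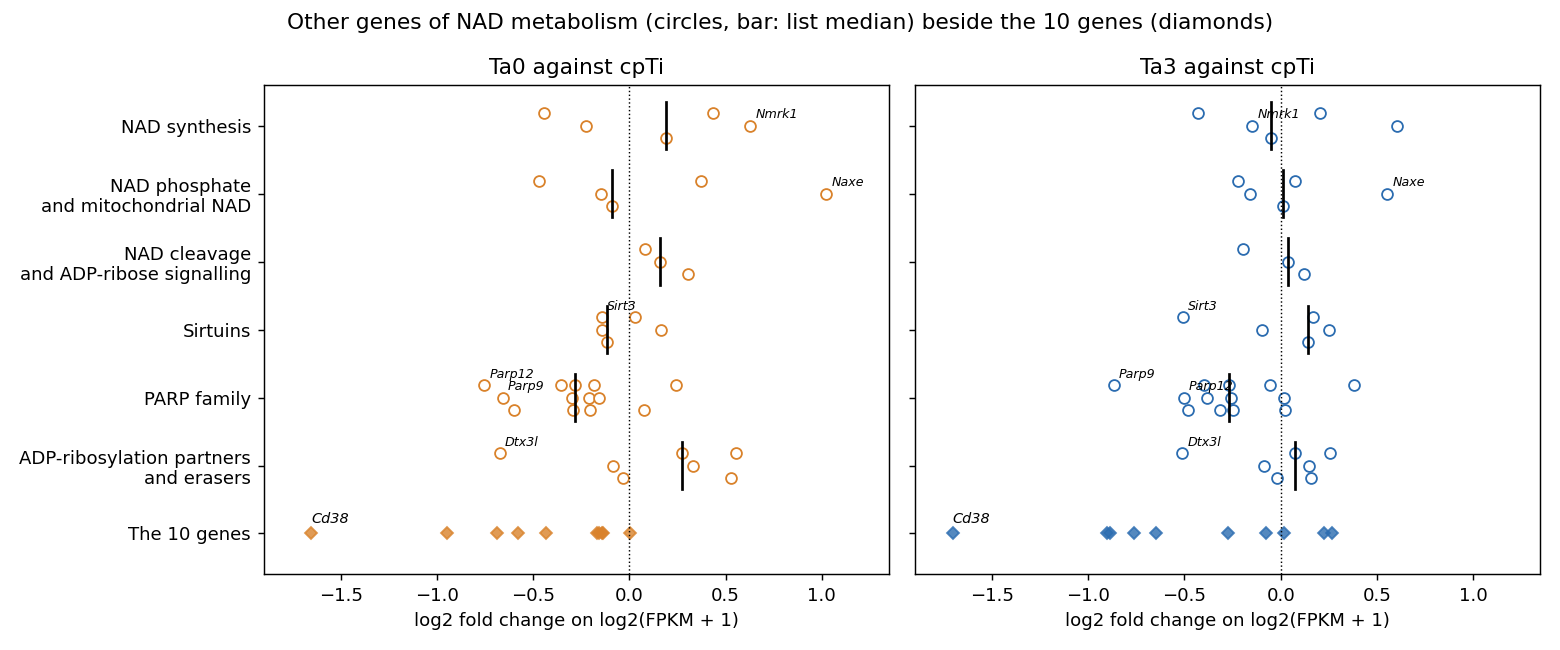
Log2 fold change against cpTi (x axes) on Ta0 (left) and Ta3 (right) of the 38 other tested genes of NAD metabolism by list (open circles, bars at the list medians) and of the 10 genes (diamonds). Cd38 lies at the far left in both panels, no circle was called, and the PARP family bars lie at -0.28 and -0.27.

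The genes most like Cd38 over the 9 libraries were Samhd1, Naip2, Adgre1, Narf and Ifit2, with Pearson r of 0.985, 0.984, 0.983, 0.981 and 0.980 on log2(FPKM + 1). All 5 were lower on the glasses in the mean, by different amounts. That direction follows from picking genes by their likeness to Cd38. Samhd1 stood at 21.3 ± 0.744 FPKM on cpTi, 16.7 ± 1.31 on Ta0 and 16.9 ± 0.604 on Ta3, while Ifit2 went from 11.9 ± 0.655 to 3.62 ± 1.29 and 3.28 ± 0.458 (SD, n = 3).

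Nampt was most like Pla2g4a, Tmem106b, Tank, Ifi204 and Cav2 (r of 0.985, 0.984, 0.983, 0.980 and 0.968). Parp14 was most like Abca1, Cmklr1, Hif1a, Fyb and Skil (r of 0.993, 0.989, 0.987, 0.985 and 0.983). The 3 sets had no gene in common. Among the 10 genes themselves, the closest pairs were Bst1 with Nampt (r = 0.905), Cd38 with Nadk (r = 0.893) and Cd38 with Parp14 (r = 0.846), and the values of Cd38 with Nmnat3, Naprt and Parp1 lay between -0.04 and 0.02. These correlations run over libraries that differ by material, depth and length slope, and are given as a description.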

How the data were processed

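The deposited table gives FPKM per gene and library, computed by the authors. Per the submitters' processing notes, the tools included DESeq2 1.20.0, featureCounts 1.5.0-p3, HISAT2 2.0.5, CASAVA 1.8 and fastp, with builds GRCm38 and mm10, with no roles, strand setting or filters stated. Within a library, the product of FPKM and gene length came in whole steps (100% within 0.05 reads), which gave rebuilt reads. The step does not follow the total reads, so a change in the scale of a library would move all its values.

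Genes reaching 1 FPKM in 3 or more libraries were fitted as log2(FPKM + 1) with limma 3.58.1 (R 4.3.3), 3 group means in 1 model over all 9 libraries, a mean-variance trend and Benjamini-Hochberg adjustment over the 10858 genes. The fit was tested on simulated data. Named genes were the 10 genes, per list the 2 with the smallest p against cpTi plus any called gene, and the 5 protein-coding genes most correlated with Cd38, Nampt and Parp14. Genes and lists were chosen with earlier results of these data known. P-values measure the spread between libraries, which may be technical.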

Additional observations from a re-analysis of the deposited data

How the results depend on the processing

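Against cpTi, Cd38 kept its sign in all 18 alternatives on each glass, and so did Bst1, Nampt, Nadk and Parp14. Between the glasses the sign of Cd38 changed in 3 of 18. Nmnat1, Nmnat3, Sirt1 and Parp1 changed sign against cpTi in some, never as called genes. The number of genes called moved more, from 46 on Ta0 and 52 on Ta3. It was 27 and 29 with a pseudocount of 0.1, 28 and 21 with no filter, 11 and 11 with a common FPKM total, 246 and 583 with a covariate for the length slope, and 20 and 18 without Ta0 replicate 1 and Ta3 replicate 3 together. On Ta3 it was also 31 with at least 5 FPKM in 3 libraries, 7 with only the 6 libraries compared and 31 with voom on rebuilt reads. Leaving out 1 library gave 7 to 84 on Ta0 and 8 to 30 on Ta3. With a common FPKM total the median of all genes moved to -0.48 on Ta0 and -0.09 on Ta3, and the Cd38 difference was -2.21 and -1.86. The cause of these shifts was not tested.

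Of the 10 genes 1 was called on each glass, where 0.424% of all genes were called on Ta0 and 0.479% on Ta3. It was 0 with no filter (0.111% and 0.0833% of all genes), with only the 6 libraries compared (0.304% and 0.0645%) and with a common FPKM total (0.101% on each). Without Ta0 replicate 1 and Ta3 replicate 3 together it was 0 on Ta0 (0.184%). With the length slope as a covariate 2 were called on Ta0 and 5 on Ta3, where 2.27% and 5.37% of all genes were called. Leaving out 1 library gave 0 to 1 on each glass, beside 0.0645% to 0.774% of all genes on Ta0 and 0.0737% to 0.276% on Ta3. The members were chosen with these values known, so nothing is read from these counts. Between the glasses every alternative called 0 genes.

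The replicate number as a block, with 4 genes called on each glass and 0 of the 10, is not offered as a paired analysis. The labels give replicate numbers but state no pairing. Same-numbered libraries deviated together (r over 0.1) in 4 of 9 pairs, with r from -0.82 to 0.85, which cannot show whether they were paired. Depth limits Naprt and Nmnat1, with as few as 18 and 15 reads in a library.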
